A study of Mus musculus with 5 samples.

Results

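BRG1 binding sites called in oxLDL-treated macrophages were compared between Baf60a knockout (KO) and wild-type (WT) cells. The comparison used the deposited peak lists of the libraries oxLDL WT and oxLDL KO, without the peaks that started before 3.1 Mb on chromosome 9. This left 9879 oxLDL WT and 4639 oxLDL KO peaks, together 14518. Before that step the 4 BRG1 lists of the series hold 14951 peaks. The cells were primary bone marrow-derived macrophages (BMDM) of Baf60a KO or WT mice, and both groups had received oxidised low-density lipoprotein (oxLDL). Each group was 1 chromatin immunoprecipitation and sequencing (ChIP-seq) library. The kind of knockout allele, any Cre driver, the strain, age and number of mice, and the dose and time of oxLDL go unstated in the sources used here. No difference has a replicate check, since a group is a single library, and no p-value between the groups is given. Intervals are 95% intervals (Wilson for shares, binomial order statistics for medians), and they cover counting error only.

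BRG1, encoded by Smarca4, is the ATPase that drives many SWI/SNF complexes. These complexes slide or evict nucleosomes at promoters and enhancers, and so open DNA to transcription factors. BAF60a, encoded by Smarcd1, is a core subunit that contacts transcription factors and nuclear receptors, and Smarcd2 and Smarcd3 encode its paralogs. In macrophages SWI/SNF works at sites prepared by lineage factors such as PU.1, which binds purine-rich sequence with a GGAA core. oxLDL is taken up through scavenger receptors and loads these cells with lipid, as in atherosclerotic plaque.

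An oxLDL WT peak that shared at least 1 bp with an oxLDL KO peak is called kept, and one that did not is called lost. An oxLDL KO peak with no oxLDL WT peak on it is called gained. These words say only whether a peak stands in a list, and not that a signal fell or rose. In bulk chromatin, fewer cells with BRG1 at a site and less BRG1 per cell cannot be told apart.

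The sequences below are examples of kept, lost and gained promoters, chosen to hold a PU.1 or an E-box match. They do not stand for their class: of the gained promoter windows, just 2 of 174 held a PU.1 match. They are the 250 bases before an annotated gene start, 5′ to 3′ on the gene's strand, from RefSeq on GRCm38.p6, the assembly of mm10. Capitals mark GAGGAAGT, a PU.1 motif that appears here as its reverse complement, and CACGTG, the E-box of basic helix-loop-helix factors such as MYC and TFEB. Both strands were searched. The 5 promoters were picked after the values had been seen, as those with the most bases inside peaks, ties going to the higher −log10 p. Peaks covered the whole of each window shown.
Fmnl1: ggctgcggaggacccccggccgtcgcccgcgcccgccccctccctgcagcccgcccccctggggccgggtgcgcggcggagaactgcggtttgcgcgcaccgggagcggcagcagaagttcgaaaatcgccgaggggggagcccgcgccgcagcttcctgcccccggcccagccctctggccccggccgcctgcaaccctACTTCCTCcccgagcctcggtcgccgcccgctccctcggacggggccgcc
Ctsc: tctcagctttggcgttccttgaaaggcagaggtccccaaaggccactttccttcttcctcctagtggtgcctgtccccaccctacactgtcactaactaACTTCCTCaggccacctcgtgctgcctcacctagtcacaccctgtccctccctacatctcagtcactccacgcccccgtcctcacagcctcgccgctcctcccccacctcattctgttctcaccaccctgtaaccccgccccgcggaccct
Gtf2a1: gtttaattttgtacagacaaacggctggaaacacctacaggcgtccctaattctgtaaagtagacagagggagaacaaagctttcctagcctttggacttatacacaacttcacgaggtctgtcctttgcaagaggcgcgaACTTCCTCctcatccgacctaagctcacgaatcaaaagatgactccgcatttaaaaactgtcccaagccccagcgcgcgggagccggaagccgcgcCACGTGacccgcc
Il6ra: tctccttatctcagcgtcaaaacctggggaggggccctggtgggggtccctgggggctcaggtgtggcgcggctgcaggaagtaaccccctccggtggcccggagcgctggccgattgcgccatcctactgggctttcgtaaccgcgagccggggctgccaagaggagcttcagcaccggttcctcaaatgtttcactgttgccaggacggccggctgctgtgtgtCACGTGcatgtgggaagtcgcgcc
Sh3tc1: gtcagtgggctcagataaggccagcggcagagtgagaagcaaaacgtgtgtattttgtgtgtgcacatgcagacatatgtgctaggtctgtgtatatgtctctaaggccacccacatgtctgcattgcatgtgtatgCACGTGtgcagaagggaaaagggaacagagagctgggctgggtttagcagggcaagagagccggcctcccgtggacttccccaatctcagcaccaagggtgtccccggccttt

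The first window belongs to Fmnl1, an actin-nucleating formin of leukocytes, and lies at chr11:103170888-103171137 on the plus strand. It was kept: its oxLDL WT peak was 1468 bp wide with a fold enrichment of 5.04, and its oxLDL KO peak was 1409 bp wide with 4.75. The PU.1 match began 50 bases before the gene start. Ctsc, which encodes the lysosomal protease cathepsin C, lies at chr7:88277835-88278084 on the plus strand and was lost, with an oxLDL WT fold enrichment of 3.55. Gtf2a1, a subunit gene of the general transcription factor TFIIA, lies at chr12:91590488-91590737 on the minus strand and was gained. It holds a PU.1 and an E-box match under an oxLDL KO peak with a fold enrichment of 5.66. Il6ra, the interleukin-6 receptor gene, lies at chr3:89913197-89913446 on the minus strand and was kept, with 7.77 in oxLDL WT and 5.88 in oxLDL KO. Sh3tc1 at chr5:35729277-35729526 on the minus strand was lost, with 5.46 in oxLDL WT. A PU.1 match was required when a window of each class was chosen, so its presence in all 3 classes is no finding.

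Fold enrichment is the authors' ratio of the fragment pileup at a peak's summit to its local background. Where values of both lists are given for a site, they stand side by side and were not tested as a change. The pileup and background behind each peak were recovered from the fold enrichment and the p-value. The lowest background of a list, which follows the depth of its library, was 3.76 fragments in oxLDL WT against 3.42 in oxLDL KO. Both had a median pileup of 17. At the authors' limit the lowest −log10 q was 1.01 in both lists, and the lowest −log10 p was 3.67 and 3.96. Neither list held a peak on Smarcd1 or within 1 kb of it, so the lists do not check the deletion. Smarca4 had 1 lost peak, Smarcd2 and Smarca2 had 1 kept peak each, and Smarcd3 had none.

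Of the oxLDL WT peaks, 2677 were kept (27.1%, interval 26.2 to 28.0) and 7202 were lost (72.9%). From the knockout side, 2754 peaks had a counterpart in oxLDL WT (59.4%, 57.9 to 60.8) and 1885 were gained (40.6%). These shares are the background for every count of kept, lost and gained peaks that follows. Near the 1 bp limit stood few peaks: 40 kept peaks shared under 50 bp with their counterpart, and 22 lost and 21 gained peaks lay under 50 bp from the other list. The kept peak with the smallest overlap, 1 bp, lay at the ribosomal protein gene Rps15a, with a fold enrichment of 2.94 in oxLDL WT and 5.20 in oxLDL KO. Just outside the limit, a lost and a gained peak at Psd2 lay 2 bp apart with 3.78 and 3.25, and a pair at the glutathione reductase gene Gsr lay 4 bp apart with 2.84 and 3.32. On chromosome 9 the last oxLDL WT peak left out lay at chr9:3037846-3038249 with a fold enrichment of 2.44, and the first one used, at chr9:4310105-4310346, had 2.94. By chromosome, the kept share ran from 23.3% on chromosome 13 (interval 19.4 to 27.9) to 32.2% on chromosome 7 (28.7 to 36.0). These are the lowest and highest values over the chromosomes, and a difference between chromosomes was not tested.

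Kept peaks were wider and stronger than lost ones. The median width was 503 bp for kept peaks (interval 487 to 517) and 338 bp for lost peaks (335 to 343). Gained peaks were narrower still, with a median of 284 bp (281 to 289), against 337 bp for the oxLDL KO peaks with a counterpart. Peaks of at least 1 kb numbered 357 among the kept (13.3%), 181 among the lost (2.51%) and 2 among the gained (0.106%). In all, kept peaks covered 1641 kb, lost peaks 2998 kb and gained peaks 609 kb. A −log10 q of at least 5 was reached by 42.6% of kept, 18.7% of lost and 9.50% of gained peaks. The median pileup at the summit was 19, 17 and 16 fragments, so the bulk of lost and gained peaks rested on few fragments each.

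The share of oxLDL WT peaks kept went up with their −log10 q, from 13.1% (11.6 to 14.7) at 1 to 2, through 18.9%, 27.2% and 42.3%, to 65.6% (60.7 to 70.2) at 10 or more. It also went up with width, from 11.3% (9.34 to 13.7) of peaks under 250 bp to 66.4% (62.3 to 70.2) of those of 1 kb or more. A wider peak has more bases on which to meet a counterpart. Within a band of strength the kept peaks were still the wider ones: at a −log10 q of 3 to 5 their median width was 494 bp against 351 bp for lost peaks, and at 5 to 10 it was 622.5 bp against 417 bp. Seen from the oxLDL KO list, the share with an oxLDL WT counterpart went from 42.5% (38.8 to 46.2) at a −log10 q of 1 to 2 up to 89.3% (82.9 to 93.5) at 10 or more. Loss was not limited to weak peaks. At a −log10 q of 10 or more, 130 oxLDL WT peaks were lost, and 76 of them lay over 20 kb from any oxLDL KO peak while 17 lay within 1 kb of one. Their summits lay inside genes in 68 cases and at gene ends in 19. In the gained class 14 peaks reached that strength, and 9 of these had a local background over 5 times the lowest of the list, as repeated sequence has. Such high-background peaks numbered 18 among the kept, 12 among the lost and 36 among the gained.

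**Figure D1:**
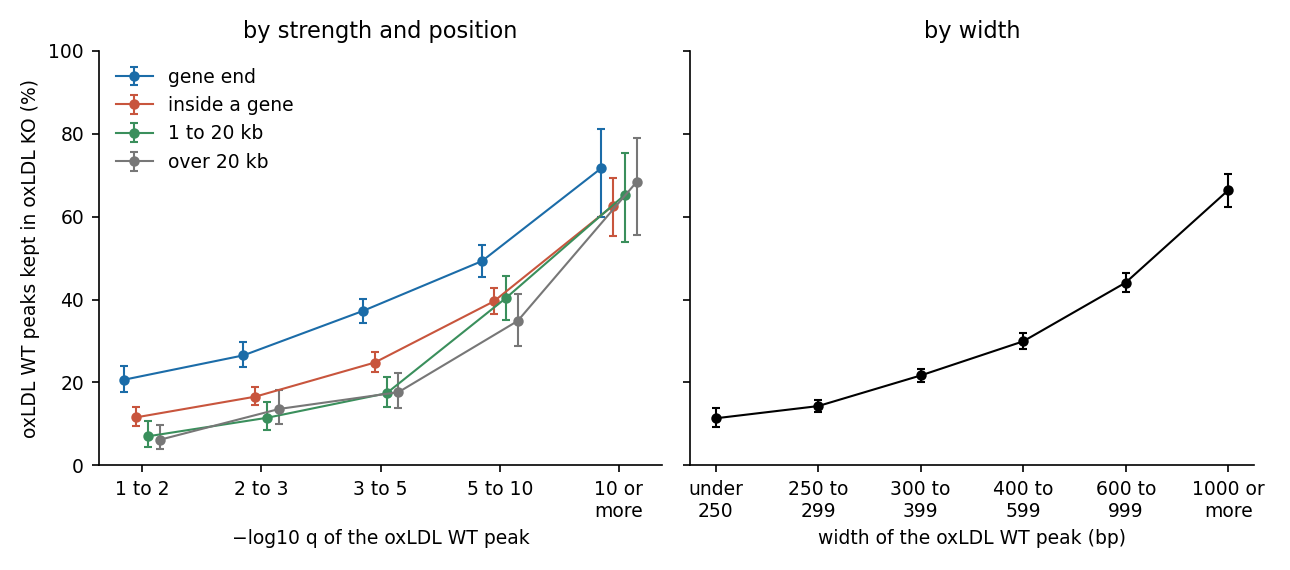
Share of oxLDL WT peaks kept in oxLDL KO, in percent, by the peak's −log10 q and position (left, 4 positions) and by its width in bp (right), with Wilson 95% intervals as bars. The share climbs from 13.1% to 65.6% over the bands of −log10 q taken over all positions, and from 11.3% to 66.4% with width. Gene-end peaks are above the other positions up to a −log10 q of 10, where the intervals overlap.

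Summits were placed by RefSeq protein-coding genes. A summit within 1 kb of either end of a gene counts as a gene-end peak, one further in as inside, and the rest as outside by 1 to 20 kb or by over 20 kb. Gene ends held 1104 of the kept peaks (41.2%, 39.4 to 43.1), 2087 of the lost (29.0%, 27.9 to 30) and 656 of the gained (34.8%, 32.7 to 37.0). Summits inside genes made up 38.8% of kept, 43.0% of lost and 36.9% of gained peaks. Sites 1 to 20 kb outside made up 11.4%, 15.4% and 12.6%. Sites over 20 kb away made up 8.48% (7.48 to 9.60), 12.6% (11.9 to 13.4) and 15.7% (14.1 to 17.4). In the lists as deposited kept peaks thus had the highest share at gene ends and the lowest share far from genes, and the gained peaks had the highest share far from genes. With the oxLDL WT list limited to as many peaks as the oxLDL KO list has, the lists were overlapped anew. The gene-end share was then 37.9% of kept (35.6 to 40.2) and 39.3% of gained peaks (37.5 to 41.1), with overlapping intervals. There an oxLDL KO peak whose counterpart was dropped counts as gained, so the order of kept and gained peaks is not settled.

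**Figure D2:**
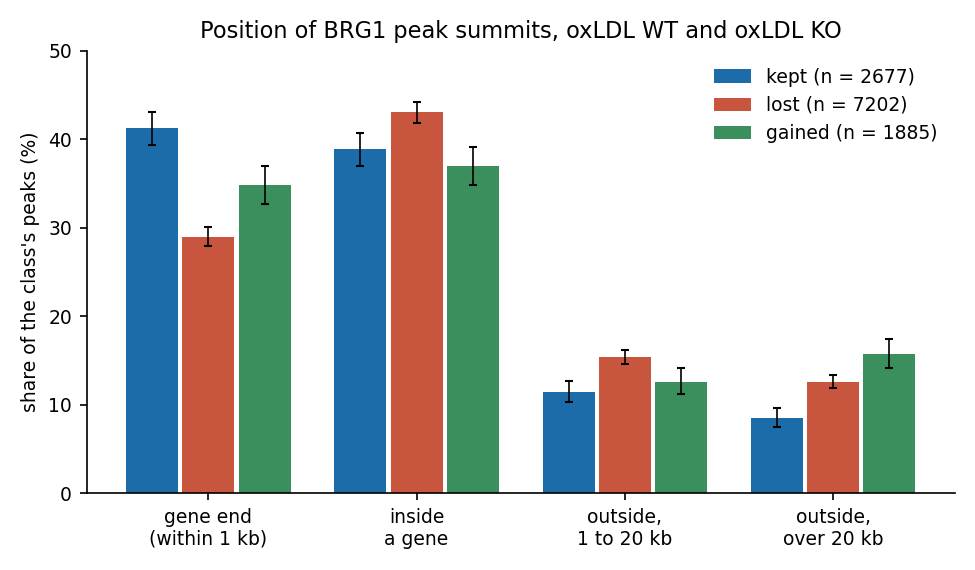
Share of kept, lost and gained peaks, in percent, whose summit lies at a gene end (within 1 kb), inside a gene, 1 to 20 kb outside or over 20 kb outside, with Wilson 95% intervals as bars. Gene ends hold 41.2% of kept, 29.0% of lost and 34.8% of gained peaks.

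Put the other way, 34.6% (33.0 to 36.3) of oxLDL WT gene-end peaks were kept, against 25.1% inside genes, 21.6% at 1 to 20 kb and 20% (17.8 to 22.4) beyond 20 kb. Gene-end peaks were kept more often than far ones up to a −log10 q of 10. At a −log10 q of 1 to 2, 20.7% (17.6 to 24.1) were kept at gene ends and 6.18% (3.84 to 9.80) beyond 20 kb. At 10 or more the shares were 71.6%, 62.6%, 65.3% and 68.4% in the same order of positions, and their intervals overlapped. With both lists limited to a −log10 q of at least 5 and overlapped anew, the higher gene-end share of kept peaks was not seen. It was 29.4% of kept (25.3 to 33.9), 29.8% of lost (27.8 to 31.8) and 44.6% of gained peaks (40.1 to 49.2). In that setting a peak whose counterpart fell under 5 counts as lost or gained, so its classes differ from those of the full lists. In the classes of the full lists, 49.3% (45.5 to 53.0) of gene-end peaks at a −log10 q of 5 to 10 were kept. Inside genes, at 1 to 20 kb and beyond 20 kb the shares in that band were 39.6%, 40.3% and 34.8% (28.9 to 41.3). In the oxLDL KO list, 63.7% (61.5 to 65.9) of gene-end peaks and 43.6% (39.4 to 47.9) of those beyond 20 kb had a counterpart.

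At gene starts the summits stood downstream, over the first transcribed bases, in all 3 classes. Strand was known for 17492 of the 21887 protein-coding genes, none of them on chromosome 18, so the following counts hold for those starts only. Summits within 1 kb of such a start numbered 1080 among kept, 1909 among lost and 611 among gained peaks. Of these, 81.4% (79.0 to 83.6), 73.0% (71.0 to 75) and 83.8% (80.7 to 86.5) lay downstream, with medians of 252, 212 and 264 bp. The stretch from 100 to 500 bp downstream held 56.4% of kept, 51.3% of lost and 66.1% (62.3 to 69.8) of gained summits. More than 250 bp upstream lay 11.2% of kept, 18.1% of lost and 10.5% of gained summits. Lost peaks near starts were therefore the ones most often upstream of them, and gained peaks were the most tightly gathered downstream.

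**Figure D3:**
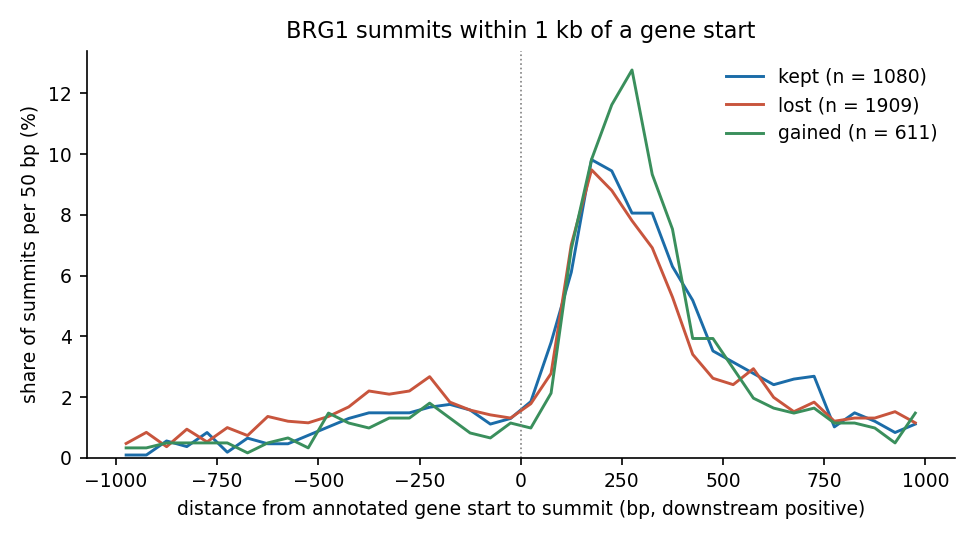
Summits within 1 kb of an annotated gene start, as the share per 50 bp of each class in percent, against the distance from the start in bp, downstream positive. All 3 lines peak downstream of the start, with medians of 252 bp for kept, 212 bp for lost and 264 bp for gained peaks.

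Where a site was kept, its summit mostly stayed within about a nucleosome's length. Each kept peak was paired with the overlapping oxLDL KO peak of nearest summit. Since pairs had to overlap, the widths of the peaks, with medians of 503 and 339 bp, limit how far apart their summits can lie. The median distance between summits was 93 bp (interval 88 to 98), and the middle of the pairs ran from 36 to 217 bp (quartiles). Summits lay within 50 bp of each other in 32.6% of pairs, within 150 bp in 64.8% and over 500 bp apart in 7.32%. The oxLDL KO summit had the higher coordinate in 1323 pairs and the lower in 1333, so there was no common direction along the chromosome. At gene starts, 557 of 1050 pairs had the oxLDL KO summit further downstream and 489 further upstream, with a median of 12.5 bp downstream. In 818 of these pairs (77.9%) both summits lay downstream of the start.

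Summits lay closer together at strong sites. Pairs with a −log10 q of at least 10 in both lists (n = 66) had a median shift of 29.5 bp (18 to 50), and pairs under 5 in both (n = 1252) had 115 bp (104 to 125). The shift was larger in wider peaks, with 68 bp where the oxLDL WT peak was under 300 bp and 161 bp where it was at least 1 kb. A wider peak leaves more room for a shift in an overlapping pair. By position it was 103 bp (95 to 114) at gene ends, 91 bp inside genes, 89 bp at 1 to 20 kb and 66 bp (49 to 79) beyond 20 kb. The largest shift, 2051 bp, was at Ppp1r9b, which encodes the actin-binding scaffold spinophilin. There a 353 bp oxLDL WT peak 23 bp upstream of the gene start lay under a 2318 bp oxLDL KO peak with its summit inside the gene, and a second oxLDL WT peak of 584 bp lay under the same oxLDL KO peak. Tet2, which encodes an enzyme that oxidises methylated DNA, had a shift of 1464 bp between fold enrichments of 4.62 and 5.20. Alcam, an adhesion molecule gene, had a shift of 1391 bp inside an oxLDL WT peak of 1883 bp, and Ggta1, a glycosyltransferase gene, had 1267 bp. Shifts over 1 kb were seen in 11 pairs in all.

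**Figure D4:**
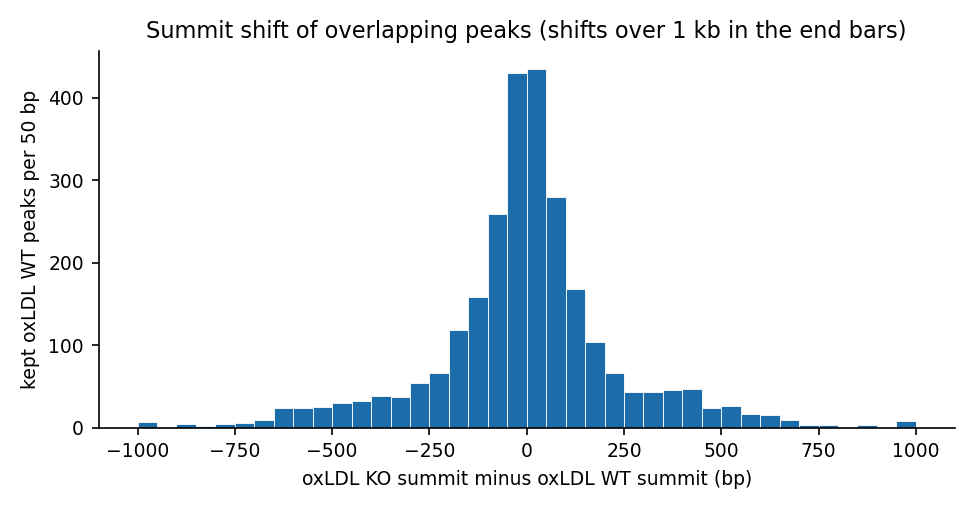
Number of kept oxLDL WT peaks per 50 bp against the summit shift, oxLDL KO minus oxLDL WT, in bp, with the 11 pairs shifted by over 1 kb counted in the end bars. The distribution is centred on 0, and 32.6% of pairs lie within 50 bp.

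Most kept sites were covered by a narrower peak in the knockout library. The oxLDL KO peak was narrower in 75.5% of pairs, the median ratio of its width to that of the oxLDL WT peak was 0.761, and in 44.5% of pairs it lay wholly inside the oxLDL WT peak. The reverse, an oxLDL WT peak inside the oxLDL KO peak, was found in 7.47%. In 103 cases 2 or more oxLDL KO peaks lay under 1 oxLDL WT peak, and these had a median width of 1204 bp. In 30 cases 1 oxLDL KO peak spanned 2 or more oxLDL WT peaks. The widest kept peak, 3147 bp in Map3k14, which encodes the NF-kB-inducing kinase NIK, held 2 oxLDL KO peaks, and the nearest, of 441 bp, had a summit shift of −4 bp. A 2359 bp peak inside the glucose transporter gene Slc2a1 also held 2, with fold enrichments of 6.09 in oxLDL WT and 4.98 in the nearer oxLDL KO peak. A 2147 bp peak in Sh2b3, which encodes the cytokine signalling inhibitor LNK, and a 2448 bp peak at Hmga2, which encodes an architectural chromatin protein, were split in the same way.

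Among lost peaks the widest were 2741 bp at Irgm1, an interferon-induced GTPase gene, 2144 bp in Spop, a ubiquitin ligase adaptor gene, and 2061 bp at S100a10, whose product binds annexin A2. Their nearest oxLDL KO peaks were 29173, 58580 and 48595 bp away. Among gained peaks the widest was 1126 bp at Tent4b, an RNA-tailing polymerase gene, with a fold enrichment of 2.67. A 913 bp gained peak at the chromatin remodeller gene Chd3 lay 166 bp from an oxLDL WT peak, and one of 893 bp at Tsc22d1 lay 613 bp from one. Such neighbours were common for gained peaks: 27.1% (25.1 to 29.1) lay within 1 kb of an oxLDL WT peak, with a median distance of 13.7 kb. Of lost peaks, 13.3% (12.6 to 14.1) lay within 1 kb of an oxLDL KO peak, with a median distance of 36.9 kb. The oxLDL WT list is the longer, so a peak of the oxLDL KO list has more neighbours to meet.

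The kept sites of highest −log10 p beyond the 10 of highest fold enrichment lay at genes of several kinds, tyrosine phosphatase and kinase genes among them. They were picked by the −log10 p of the oxLDL WT peak, a choice that favours lower values in oxLDL KO. Over all kept peaks the median fold enrichment was 3.99, and over the oxLDL KO peaks with a counterpart it was 4.07. At the gene end of Ptpn18, a tyrosine phosphatase gene, pileups were 41 fragments in oxLDL WT and 19 in oxLDL KO (fold enrichment 8.82 and 4.53), with a summit shift (oxLDL KO minus oxLDL WT) of −73 bp. At Fes, a tyrosine kinase gene of myeloid cells, they were 41 and 22 (8.79 and 5.19), and at Mthfd1, a folate enzyme gene, 40 and 21 (8.61 and 4.98). Inside Raet1e, which encodes a ligand of the receptor NKG2D, fold enrichments were 8.25 and 7.61, inside the lysosomal transporter gene Slc15a4 9.03 and 3.39, and inside Sla, an adaptor gene that dampens receptor signalling, 8.82 and 5.43. Outside genes, the 3 kept peaks of highest −log10 p had very high local background, among them chr2:98666666-98667246 with pileups of 3993 and 3704 and summits 2 bp apart. Leaving such peaks out, a choice made after the values were seen, put first a site 7309 bp upstream of Mmp12, the macrophage elastase gene. Its fold enrichments were 9.03 and 7.47, its widths 254 and 252 bp and its summit shift −18 bp.

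Among lost sites the highest −log10 p was at a site 11460 bp from Speer4c, with 81 fragments over a local background of 15.2 (fold enrichment 5.07). Inside Sfi1 a lost peak had 105 fragments on high background (2.88). At B9d2, a cilium gene, the lost gene-end peak had a pileup of 34 (7.35), and at Tmem43, a nuclear envelope protein gene, 31 (6.72). A 1279 bp peak inside Cd47, which encodes the surface signal that restrains phagocytosis, had 34 fragments (7.35), and the nearest oxLDL KO peak was 1530 bp away. Inside Emilin2, an extracellular matrix gene, a lost peak had 33 fragments (7.14). A site 35786 bp from Plxna1, a semaphorin receptor gene, had 38 fragments (7.48) and counted as lost although an oxLDL KO peak stood 217 bp away. A site near Mknk2, a kinase gene downstream of MAP kinases, had 33 fragments (7.14) with an oxLDL KO peak at 2316 bp.

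Beyond the 10 gained peaks of highest fold enrichment, the gene-end sites of highest −log10 p were at Herc1, a ubiquitin ligase gene, with a pileup of 29 (5.62), at Inpp5a, an inositol phosphate phosphatase gene, with 28 (5.66), and at Nfkb1, which encodes the p105 and p50 subunits of NF-kB, with 25 (5.52). The nearest oxLDL WT peaks were 218900, 92165 and 205532 bp away. Inside and outside genes, the gained peaks of highest −log10 p all had high local background, and 3 of these 6 were named by Sfi1, a spindle gene. Without high-background peaks, as chosen after the values were seen, the first inside genes was at Abcg2, a transporter gene, with a fold enrichment of 4.14, and the first outside genes was near Gm21119, with 4.72. Both rested on backgrounds above the lowest of the list, 8.66 and 5.77 fragments.

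Counted by gene, 5359 protein-coding genes had a peak inside or within 1 kb in either list, called the WT list and the KO list from here: 4736 in the WT list (21.6% of 21887) and 2877 in the KO list (13.1%). These were 2254 in both lists (10.3%), 11.3% of all genes in the WT list alone and 2.85% in the KO list alone. Among them 2480 held lost peaks alone, 618 held gained peaks alone and 907 held only kept peaks with none gained. Another 904 held kept and lost peaks together, and 363 held lost and gained peaks with none kept. Gene-end peaks were found at 3259 genes in the WT list (14.9% of 21887) and 1918 in the KO list (8.76%). They stood in both lists at 1309 genes (5.98%), in the WT list alone at 1950 (8.91%) and in the KO list alone at 609 (2.78%). A gene with a gene-end peak in 1 list alone could still hold a peak of the other list further inside: 257 of the 1950 (13.2%) and 151 of the 609 (24.8%) did. The more oxLDL WT peaks a gene had, the more often it had any oxLDL KO peak: 36.3% (34.6 to 38.0) of genes with 1, 59.6% with 2, 78.3% with 3 to 4 and 88.0% (83.0 to 91.7) with 5 or more. Genes with more peaks were also longer, with a median of 28.2 kb for 1 peak and 114.8 kb for 5 or more.

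Genes dense in peaks differed in how many they kept. Dnmt3a, which encodes a de novo DNA methyltransferase, had 8 oxLDL WT peaks and 10 oxLDL KO peaks: 7 of the 8 were kept and 4 oxLDL KO peaks were gained. Its kept summits stood between 5.645 and 71.129 kb from the annotated start. The strongest in the WT list, at 66.890 kb, had a fold enrichment of 6.26 there and 3.62 in the KO list. Arap1, which encodes a GTPase-activating protein that acts on Arf proteins, kept 6 of 7 peaks and gained none. Its single lost peak, at 34.372 kb, was 899 bp wide with a fold enrichment of 5.37. Zmiz1, a transcriptional coregulator gene, had the most oxLDL WT peaks of the genes named here, 17, of which 6 were kept and 11 lost. Abr, a regulator of small GTPases, kept 5 of 8, and the transcription factor genes Fli1 and Foxp1 kept 5 of 10 and 5 of 12 with none gained.

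At other genes most of the cluster was lost. Vps13d, which encodes a lipid transfer protein, had 14 oxLDL WT peaks, of which 12 were lost. The kept ones lay at 157.604 and 175.908 kb, and a gained peak stood 0.265 kb from the start. Tspan14, which encodes a tetraspanin partner of the protease ADAM10, lost 10 of 13, Ubac2 9 of 11 and Rin2, a Rab5 activator gene, 9 of 10. Pik3ap1, which encodes the phosphoinositide 3-kinase adaptor BCAP, had 9 oxLDL WT and 4 oxLDL KO peaks, and none overlapped. Its gained peak at 0.205 kb from the start had a fold enrichment of 4.15, and the strongest lost peak, at 43.132 kb, had 4.83. Arhgap18, a GTPase-activating protein gene, had 5 oxLDL WT peaks, led by one of 5.04 at 27.086 kb, and no oxLDL KO peak.

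The genes with the most gained peaks were few. Plec, which encodes the cytolinker plectin, had 7 oxLDL KO peaks of which 5 were gained, while 4 of its 5 oxLDL WT peaks were lost. No gained peak of Plec passed a fold enrichment of 4.30. Fkbp15 had 4 gained peaks and 1 lost. The gained ones included summits at −0.264 and 0.285 kb from the start, and the lost one, at 30.794 kb, had the highest fold enrichment of the gene, 5.67. Nav1, a microtubule-binding protein gene, had 4 gained, 6 lost and 2 kept. Gm38510 had 4 gained and 1 lost peak. Sfi1 had 5 gained, but on high local background, with fold enrichments no higher than 2.76 in the KO list.

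**Figure D5:**
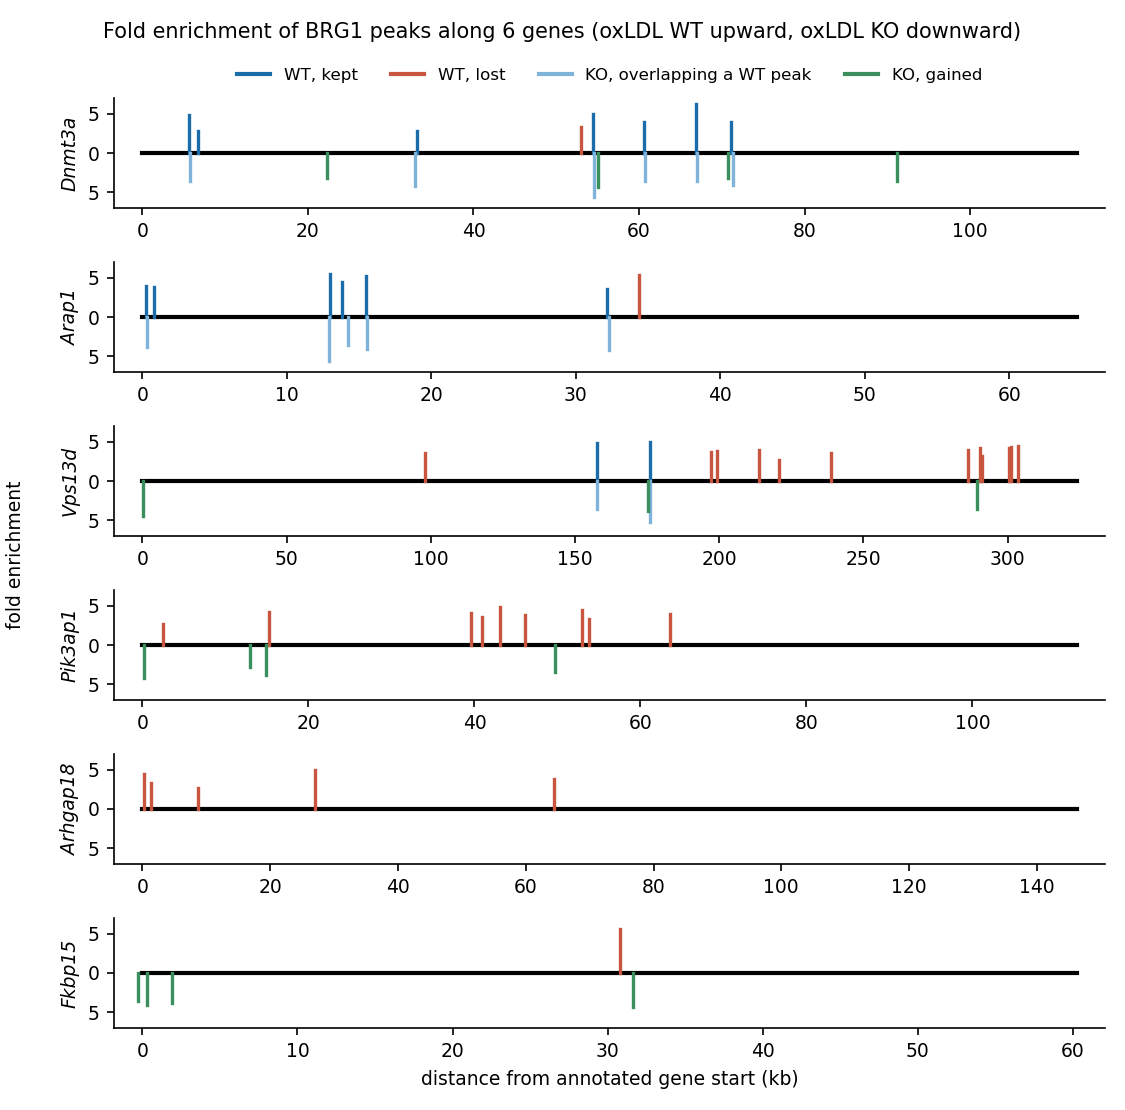
Peaks along 6 genes by the distance of the summit from the annotated gene start in kb. Lines give fold enrichment, upward for oxLDL WT and downward for oxLDL KO, and colours the class. Dnmt3a and Arap1 keep 7 of 8 and 6 of 7 oxLDL WT peaks, Vps13d loses 12 of 14, Pik3ap1 and Arhgap18 keep none, and Fkbp15 has 4 gained peaks.

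Defining genes of macrophages carried peaks, and those of other cell types almost none. Of 10 macrophage markers, 8 carried a gene-end peak in the WT list and 5 in the KO list, against 14.9% and 8.76% of all genes. A gene-end peak was kept at Csf1r, the receptor of the growth factor on which macrophages depend (3.57 in the WT list and 3.85 in the KO list), at Cd68 (3.99 and 3.85) and at Adgre1, which encodes F4/80 (3.30 and 3.85). The kept Cd68 peak of the WT list lay 1644 bp from the gene start, and another, 334 bp from it (3.99), was lost. The strongest Csf1r peak, inside the gene (5.88), was also lost. At Lyz2 and Mrc1 both lists had a gene-end peak, without overlap. Mertk, a receptor for apoptotic cells (4.41), and the integrin gene Itgam (3.57) were among those with one in the WT list alone, and the KO list had no peak inside either. With gene bodies included, 4 of the 18 oxLDL WT peaks on the list were kept, against 27.1% of all oxLDL WT peaks. Cx3cr1 had no peak and Fcgr3 had 1 lost peak inside. Among 8 markers each of lymphocytes, neutrophils, mast cells and basophils, dendritic cells and fibroblasts, the sole gene-end peak was a lost one at Xcr1, a dendritic cell receptor gene. Inside genes these 5 lists had a kept peak in Ms4a1, the B cell gene for CD20, and a lost one in Gata2. The lists of 15 hepatocyte and 15 neuron genes had no peak in either library.

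Lineage transcription factor genes had 29 of 64 oxLDL WT peaks kept, against 27.1% of all peaks. Of 26 ETS, RUNX and C/EBP genes, 10 carried a gene-end peak in the WT list and 9 in the KO list (38.5% and 34.6%, against 14.9% and 8.76% of all genes). Of these 7 had one in both (5.98% of all genes), 3 in the WT list alone and 2 in the KO list alone. The other 35 of the 64 peaks, counted over gene ends and bodies, were lost, and 10 peaks were gained. All 5 peaks of Spi1, the PU.1 gene, were kept. Cebpg, a C/EBP family gene, had 2 kept gene-end peaks, the stronger with 6.30 in the WT list and 6.11 in the KO list, and Elf2 kept one with 4.83 and 5.20. Gene-end peaks were in the WT list alone at Etv6 (4.67), Cebpa (3.37) and Runx1 (3.15), although Etv6 and Runx1 kept 3 of 9 and 4 of 10 peaks further in. Those in the KO list alone were at Elf1 and Elk3, with 3.62 and 3.61.

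Genes of GTPase signalling to the cytoskeleton are described singly, up to 3 per class, so their number per class is no count. Rac2, which encodes the haematopoietic Rac, kept a gene-end peak with fold enrichments of 5.88 in the WT list and 4.53 in the KO list. The activator gene Dock8 kept one with 6.67 and 4.53, and Dock10 one with 3.72 and 6.11. Vav1 (3.91), Dock2 (4.38) and Arhgap18 (4.41) had a gene-end peak in the WT list alone, and Vav3 in the KO list alone (3.61).

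The phosphoinositide 3-kinase pathway relays growth factor and adhesion signals to AKT and mTOR. Of 28 phosphoinositide 3-kinase, AKT and mTOR genes, 14 carried a gene-end peak in the WT list and 8 in the KO list (50% and 28.6%, against 14.9% and 8.76% of all genes). In both lists it was 5 genes, against 5.98% of all genes. Kept ones stood at Rragd (3.78 and 3.62) and Rictor (4.20 and 3.62), which act in mTOR complexes or their recruitment, and at the kinase gene Pik3ca (3.72 and 4.07). At Rragd and Rictor another gene-end peak, nearer the start, was lost. It lay at 84 bp with 5.04 at Rragd, and at −136 bp with 4.22 at Rictor. The 9 in the WT list alone included Pik3r5 and Pdpk1, each with 4.83, and Pik3cb with 4.20. Those in the KO list alone included Pik3ap1 (4.15) and Rps6ka1 (3.07).

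TGF-beta signals through paired receptors and SMAD proteins and restrains macrophage activation. Of 26 TGF-beta, SMAD and BMP genes, 11 had a gene-end peak in each list (42.3%, against 14.9% of all genes in the WT and 8.76% in the KO list), and 9 had one in both (5.98% of all genes). The receptor gene Tgfbr1 kept its peak with 4.38 in the WT list and 5.31 in the KO list, and the inhibitory gene Smad7 kept one with 4.43 and 3.82. Smurf2, a ubiquitin ligase gene of the pathway, kept one at each end. The partner receptor gene Tgfbr2 had a lost peak with a fold enrichment of 6.51 and no oxLDL KO peak, and Tgif1 a lost one with 4.62. The ligand gene Tgfb1 had a gained peak with 4.53, its summit at −36 bp from the start, beside a kept peak inside the gene. Smurf1 had a gained peak with 4.03. Kept, lost and gained gene-end peaks thus all occurred on this list, and kept ones at the most genes, 8.

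Genes of chromatin enzymes, some of which act with SWI/SNF at the same sites, were found in every class. Of 28 histone acetylation and deacetylation genes, 12 carried a gene-end peak in the WT list and 7 in the KO list (42.9% and 25%, against 14.9% and 8.76% of all genes), of which 6 were kept, 6 in the WT list alone and 1 in the KO list alone. Kept ones stood at the acetyltransferase genes Ep300 and Kat2b (3.15 and 5.20 at Kat2b) and at the corepressor gene Ncor1 (4.08 and 4.49). Crebbp (3.99), Ncoa2 (3.88) and Kat6b (3.78) had one in the WT list alone, and Hdac5 (4.66) in the KO list alone. Of 28 histone and DNA methylation genes, 11 had a gene-end peak in each list (39.3%). In both lists it was 5, and in each list alone 6, where 5.98% of all genes were in both, 8.91% in the WT list alone and 2.78% in the KO list alone. Tet2, Dot1l and Kdm5b kept one (3.90 and 5.20, 2.61 and 3.90, and 3.78 and 3.62). Polycomb genes went both ways: Ezh2 (3.28) and Eed (4.20) had one in the WT list alone, and Ezh1 (5.66) and Suz12 (4.75) in the KO list alone. Setd1b also counted in the KO list alone by its summit, but its 1114 bp peak overlapped an oxLDL WT peak.

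None of the 28 listed glycolysis and hexose uptake genes had a gene-end peak in both lists, against 5.98% of all genes. Of these, 8 had one in the WT list (28.6%, against 14.9% of all genes) and 2 in the KO list (7.14%, against 8.76%). Those in the WT list alone were the transporter genes Slc2a1 (5.04) and Slc2a3, and the enzyme genes Pdk1 (4.62), Eno1 (3.36), Hk3, Pgam1, Pgd and Tpi1. Those in the KO list alone were Pfkp (4.07) and Gpi1 (3.43). Inside the genes, 5 oxLDL WT peaks were kept, at Slc2a1, Eno1, Hk2, Hk3 and Hif1a. Over gene ends and bodies together the list had 31 oxLDL WT peaks, of which 26 were lost, against 72.9% of all oxLDL WT peaks. It had 3 gained peaks. Each of these counts is small and comes from 1 library per group.

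Vesicle and lysosome genes serve the route by which ingested lipoprotein is taken up and broken down. Of 28 genes of vesicle coats, endosome sorting and dynamins, 13 carried a gene-end peak in the WT list and 8 in the KO list (46.4% and 28.6%, against 14.9% and 8.76% of all genes), 5 in both. With bodies included, 5 of their 38 oxLDL WT peaks were kept, against 27.1% of all peaks. The strongest kept one was at Vps26a, a retromer subunit gene, with 7.09 and 6.68. Clathrin heavy chain (Cltc), the adaptor genes Ap1g1 (3.57) and Ap3b1 (4.46), and the fission dynamin gene Dnm1l (4.59) had one in the WT list alone. In all, 8 genes of this list had a gene-end peak in the WT list alone and 3 in the KO list alone. Of all genes, 8.91% and 2.78% did. Hip1 and Dab2, clathrin adaptor genes, had 6 and 5 lost peaks inside the gene and none in the KO list. Of 25 vacuolar ATPase and lysosome membrane genes, 11 carried a gene-end peak in the WT list and 7 in the KO list (44% and 28%, against 14.9% and 8.76%), 5 of them in both. Kept ones stood at Atp6v0b (3.69 and 3.97), Atp6v1b2 (4.20 and 4.98), Atp6v1g1 and Lamp1, and at Atp6v1a, where the summit of the KO list lay over 1 kb inside. At Atp6v0d1 both lists had one without overlap. Atp6v0a1 (5.88), Atp6v0d2 (2.94) and Scarb2 (3.78) were among those in the WT list alone, and Ostm1 (3.97) and Atp6v1h (3.53) were in the KO list alone. Of 30 RNA polymerase II and Mediator genes, 6 had one in the WT list and 4 in the KO list (20% and 13.3%, near the 14.9% and 8.76% of all genes), with kept peaks at Med15 (5.25 and 5.20), Med13l (4.41 and 4.29) and the elongation factor gene Ell2 (3.36 and 4.53). A gene-end peak stood in the WT list alone at 3 of these 30 genes and in the KO list alone at 1.

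Promoter windows touched by BRG1 peaks were rich in CpG, most of all the kept and gained ones. RefSeq windows from 250 bases before to 50 after a start were sorted by the peaks that shared at least 1 bp with them. These were 20085 windows on the autosomes other than chromosome 18, for which no windows were at hand. Peaks with a counterpart touched 630 windows, lost peaks alone 826 and gained peaks alone 174, and 18452 had none. The median number of CpG dinucleotides per window was 30 for kept, 25 for lost, 30.5 for gained and 12 for windows with no peak, and the median GC content was 69%, 66.3%, 69.3% and 56%. The kept share was taken among windows touched by an oxLDL WT peak or by an oxLDL KO peak with a counterpart. It was 35.1% (25.2 to 46.5) with 0 to 4 CpG, 33.3% with 5 to 9 and 32.2% with 10 to 19. With 20 to 29 it was 41.0%, with 30 to 39 50.3%, and with 40 or more 52.7% (46.8 to 58.6). Kept and gained promoters were thus alike in CpG content, and lost ones held less.

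Of 9 motifs searched on both strands of these windows, each is given here by its letters, and matches of different motifs may overlap. The PU.1 letters GAGGAAGT were found in 3.18% of all windows, in 5.71% of kept windows (4.16 to 7.81), in 4.48% of lost (3.27 to 6.11) and in 1.15% of gained (0.316 to 4.09, 2 of 174). In windows with at least 20 CpG the shares were 4.45% (2.96 to 6.65), 1.82% (0.991 to 3.31) and 0.704% (0.124 to 3.88), against 2.15% of all such windows. The E-box CACGTG stood in 7.89% of all windows, 12.7% of kept, 9.32% of lost and 9.20% of gained. With at least 20 CpG these were 11.8%, 14.2%, 11.3% and 11.3%, and their intervals overlapped. The TATA letters TATAAA stood in 12.7% of all windows but in 3.81% of kept, 5.69% of lost and 2.87% of gained ones. With at least 20 CpG its shares were 3.70%, 2.02%, 4.18% and 2.11%. GGGCGG, the letters of a GC box, stood in 47.0% of all windows and in 76.7%, 70.3% and 78.2% of the 3 classes. With at least 20 CpG those shares were 81.5%, 84.6%, 86.2% and 87.3%, a smaller gap. CCGGAAG, the letters of other ETS factors, stood in 11.9% of all windows and in 11.6%, 15.7% and 10.9% of kept, lost and gained ones, and CCAAT in 38.1% against 25.6%, 30% and 25.9%. TGANTCA (AP-1) stood in 7.06% of all windows against 4.92%, 5.45% and 2.87%, TTGCNNAA (C/EBP) in 10.3% against 5.24%, 7.75% and 5.17%, and GCATGCGC (NRF1) in 3.55% against 2.86%, 3.63% and 1.15%. These are counts of letters in a window and do not show that a factor was bound.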

How the data were processed

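BRG1 ChIP-seq was done on macrophage chromatin cut by enzyme digestion, with paired-end sequencing, per the labels' protocols. Per the submitters' processing notes the tools were bcl2fastq 2.17, Trimmomatic 0.33, Bowtie2 and MACS3 on mm10. Each deposited list gives per peak a score (10 times −log10 q, without decimals), the authors' fold enrichment, −log10 p-value and −log10 q-value. Any input library was not analysed here. Read depth is not in the lists. The fragment pileup and local background were therefore recovered from the fold enrichment and the Poisson p-value, and 100% of oxLDL WT and 99.98% of oxLDL KO pileups came out whole within 2%. High background means over 5 times the lowest background of the list, a choice made after the values were seen.

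The lists were overlapped with pandas 2.3.3 and numpy 2.4.6 (Python 3.11.15), Wilson intervals came from scipy 1.17.1, and the scripts were tested on simulated peaks. Gene positions and promoters came from RefSeq tables on GRCm38.p6. Of the 355 symbols in 18 gene lists all matched. Peaks are named by their nearest protein-coding gene within 100 kb. Named peaks are, per class and position and beyond the 10 of highest fold enrichment, the 3 of highest −log10 p, then the 5 widest, the 5 largest shifts and the 5 most split. Named genes are the 6 with the most peaks per class and, per list, up to 3 per kind of gene-end peak. Members of lists beyond these, Arhgap18 and the promoters shown were chosen after their values were seen. The members and gene lists were chosen with earlier results of these data known. Some members of the lists, and the counts of 1 list, are not reported here. Alternatives are given in the closing section.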

Additional observations from a re-analysis of the deposited data

How the results depend on the processing

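No paired analysis was possible because each group is 1 library and the labels give no replicate numbers. The results tested were the kept share of oxLDL WT peaks, the share of oxLDL KO peaks with a counterpart, the gene-end shares and median widths of kept, lost and gained peaks, and the median summit shift. Of 81 values over 11 other settings, 40 moved by less than their interval and 41 moved by more. The cause of the moves was not tested beyond what each setting leaves out. Overlaps were made anew in each setting that shortens a list, so a peak whose counterpart was left out counts there as lost or gained. Limiting both lists to the same lowest −log10 p, keeping the start of chromosome 9 and leaving out high-background peaks (added after seeing the data) moved none of the values beyond its interval. With a −log10 q of at least 2, the counterpart share was 57.2%, the gained gene-end share 37.8%, the widths 530, 356 and 294 bp and the shift 85 bp. With at least 5, which leaves 2489 and 893 peaks, the kept share was 17.4%, the counterpart share 48.8%, the kept and gained gene-end shares 29.4% and 44.6%, the widths 668.5, 476 and 365 bp and the shift 56 bp. With the oxLDL WT list limited to its strongest peaks, as many as oxLDL KO has, the kept share was 37.6%, the counterpart share 39.4%, the gene-end shares 37.9%, 27.9% and 39.3%, the widths 601.5, 384 and 294 bp and the shift 81 bp. Requiring overlap of at least 50% of the shorter peak gave a kept share of 24.9%, a counterpart share of 54.6% and a shift of 85 bp. Requiring summits within 200 bp gave 19.8%, 42.2%, gene-end shares of 30.3% (lost) and 37.7% (gained), widths of 449, 352 and 304 bp and a shift of 59 bp, which that setting itself bounds. Gene-end shares of kept, lost and gained peaks were 29.0%, 19.99% and 25.3% within 500 bp and 61.3%, 49.0% and 52.6% within 5 kb. Within 1 kb of annotated starts alone, which leaves out chromosome 18, the lost share was 27.3%. The gene-end share of kept peaks was above that of lost peaks in 10 of the 11 settings, except where −log10 q had to reach 5. It was below that of gained peaks in that setting and, with overlapping intervals, with the shortened oxLDL WT list. That of gained peaks was above that of lost ones in 11 of 11, and kept peaks were wider than lost ones in all 8 settings for which widths were computed. With 1 library per group, a median pileup of 17 fragments and library depths not given in the lists, a peak absent from a list may lie just under the calling limit, and differences between the libraries and between the genotypes cannot be told apart.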
